A study of Mus musculus with 6 samples.

Results

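The genes described here are 40 voltage-gated potassium channel genes and genes of their auxiliary subunits, out of 21887 protein-coding genes of the mouse RefSeq table for GRCm38.p6, the assembly behind mm10. They were taken from a list of names, and each peak of the 6 deposited lists was given to a gene where it lay inside the gene span, or within 50 kb of it with that gene as the nearest protein-coding gene. Peaks within 1 kb of either end of the span were counted as gene-end peaks, and all other assigned peaks as distal peaks. All 40 names matched the table. Peaks that overlapped or touched were merged into regions, and 161 of 39374 regions belonged to these genes.

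The lists come from CUT&RUN, an assay in which a nuclease is brought to chromatin by an antibody and frees the DNA around the bound protein for sequencing. The antibody was against ERα, the estrogen receptor encoded by Esr1. Limbic brain was taken from adult male C57/BL6 mice whose gonads had been removed at 10 to 12 weeks of age. After 3 weeks, the EB group was given 5 µg of estradiol benzoate under the skin and the vehicle group corn oil, and nuclei were prepared 4 hours later, with 3 libraries in each group. Whether each library is a separate animal is not stated in the labels, so the spread between them may be technical. Peaks at a gene do not measure its expression. With 3 libraries against 3, the smallest two-sided exact permutation p for any gene is 0.1, so no single gene could pass a test, and the comparisons below are counts set beside the same counts over all genes.

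Voltage-gated potassium channels open when a membrane depolarizes and let potassium leave the cell, which ends action potentials and sets how readily a neuron fires again. Kv1, Kv3 and Kv4 subunits (the Kcna, Kcnc and Kcnd genes) form delayed, fast and transient currents, and KCNQ subunits carry the slow M-current in brain. Kv2 channels can be joined by electrically silent subunits (Kcnf1, Kcng, Kcns and Kcnv genes), and Kv4 channels by the calcium-binding KChIP proteins (Kcnip genes) and the peptidase-like proteins DPP6 and DPP10.

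The lists held 11082, 14123 and 17558 peaks in EB replicates 1, 2 and 3, and 5421, 13717 and 20541 peaks in vehicle replicates 1, 2 and 3, and values by library keep that order below. Vehicle replicate 1 is the shortest list and vehicle replicate 3 the longest. The names given to peaks in replicate 3 of both groups have another style than in replicates 1 and 2, and differences are also given within these sets. The lists hold no read counts. The number of fragments at a peak's summit was estimated from its deposited fold and p-value under an assumed formula of the peak caller. The smallest called summit was 4 fragments and the median 6 in each library. The lack of a peak is therefore no evidence that ERα was not bound. The tissue label was set against peaks at marker genes in at least 1 library, which do not show that a cell type is present or absent. Gene-end peaks were found at 3 of 4 neuron, 3 of 4 astrocyte, 3 of 4 oligodendrocyte, 0 of 4 microglia and 0 of 3 endothelium genes, and distal peaks at 4, 2, 4, 2 and 2 genes of these lists in the same order.

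Few promoter windows of these genes were overlapped by peaks, and the overlapped ones are printed here. RefSeq promoter windows, from 250 bases before to 50 after an annotated start on GRCm38.p6, were held for 29 of the 40 genes (41 windows). Peaks of at least 1 library overlapped 2 of these 41 windows (4.88%), against 24.5% of all 32851 windows. Both belonged to Kcnip3, which encodes the KChIP protein also known as DREAM, and each was overlapped in 1 library. The strongest peak at any of the 40 genes lay over the window of Kcnq1ot1, a non-coding RNA transcribed antisense from inside Kcnq1, and was present in all 6 libraries. Capitals mark the bases inside the peak region, and each window is read 5′ to 3′ on the minus strand.
Kcnip3, chr2:127522045-127522344, vehicle replicate 3: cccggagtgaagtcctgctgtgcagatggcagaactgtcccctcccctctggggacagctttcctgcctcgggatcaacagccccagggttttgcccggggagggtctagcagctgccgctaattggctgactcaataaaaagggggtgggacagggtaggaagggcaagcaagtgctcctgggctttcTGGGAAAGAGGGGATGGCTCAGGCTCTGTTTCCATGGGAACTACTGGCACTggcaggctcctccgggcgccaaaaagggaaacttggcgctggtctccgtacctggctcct
Kcnip3, chr2:127521343-127521642, vehicle replicate 2: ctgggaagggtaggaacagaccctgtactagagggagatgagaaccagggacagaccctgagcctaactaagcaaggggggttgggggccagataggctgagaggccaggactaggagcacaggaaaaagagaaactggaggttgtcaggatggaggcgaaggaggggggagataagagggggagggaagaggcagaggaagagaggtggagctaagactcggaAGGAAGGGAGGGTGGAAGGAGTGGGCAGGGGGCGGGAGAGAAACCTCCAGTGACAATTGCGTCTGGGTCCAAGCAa
Kcnq1ot1, chr7:143296498-143296797, all 6 libraries: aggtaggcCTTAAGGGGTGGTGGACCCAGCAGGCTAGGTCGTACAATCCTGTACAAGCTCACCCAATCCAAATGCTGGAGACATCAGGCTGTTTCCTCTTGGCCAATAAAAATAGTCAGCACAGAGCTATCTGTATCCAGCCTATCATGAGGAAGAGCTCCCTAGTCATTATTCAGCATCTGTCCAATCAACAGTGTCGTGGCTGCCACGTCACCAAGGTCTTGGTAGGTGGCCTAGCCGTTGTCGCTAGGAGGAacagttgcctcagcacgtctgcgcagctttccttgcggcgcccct
The upper Kcnip3 region covered 51 of the 300 bases, the lower 75 and the Kcnq1ot1 region 247. These windows were searched on both strands for AGGTCA, the core hexamer of the estrogen response element, and for its palindrome GGTCANNNTGACC, which contains most of the hexamer. Neither motif was found in the 3 windows. Over the 41 windows, the hexamer was found in 4 (9.76%), at Kcnh1, Dpp6, Kcnip4 and Kcnf1, against 16.3% of all windows. The palindrome was found in 0 of 41, against 0.0700% of all windows, and with up to 1 mismatch in 0 of 41, against 0.877%. A letter match describes the window and does not show a binding site.

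Peaks were present at most of these genes but seldom at their ends. A gene-end peak in at least 1 library was found at 11 of the 40 genes (27.5%), against 37.6% of all genes. None had a gene-end peak in all 6 libraries, against 9.38% of all genes. A distal peak in at least 1 library was found at 32 genes (80%), against 40.7% of all genes, and in all 6 libraries at 5 genes (12.5%: Dpp6, Kcnf1, Kcng3, Kcnq1 and Kcnq3), against 4.5%. Of the 161 regions, 14 (8.70%) lay at gene ends, 114 (70.8%) inside spans and 33 (20.5%) in flanks, against 30.3%, 45.5% and 24.2% of the assigned regions of all genes. Kcnd1, Kcng4, Kcns1, Kcns2 and Kcnv2 had no peak in any library.

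**Figure D1:**
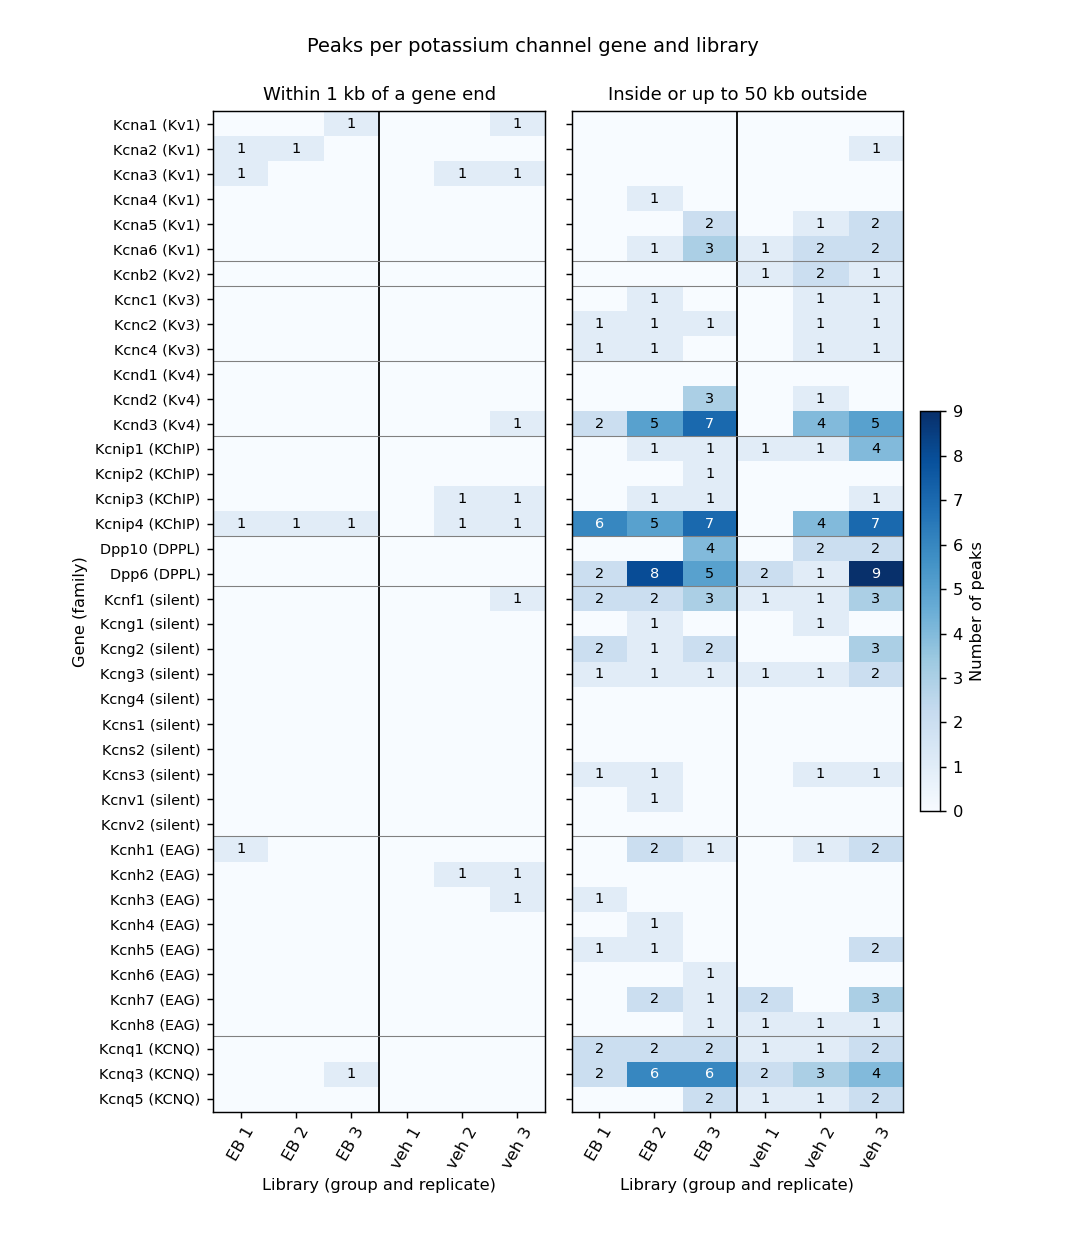
Number of peaks at each of the 40 genes (rows) in each library (columns, EB then vehicle), for gene-end peaks on one side and distal peaks on the other, with shade and digit giving the number of peaks. Gene-end peaks are scattered over 11 genes, while distal peaks gather in Kcnip4, Dpp6, Kcnd3 and Kcnq3.

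The share of genes with a distal peak moved with gene length. The median span was 39.4 kb for the 40 genes, against 17.2 kb for all genes. Among genes of 200 kb or more, all 14 channel genes had a distal peak in some library (100%), against 93.3% of all genes of that length. Among genes under 50 kb, 13 of 21 channel genes did (61.9%), against 30.4%. From 50 to 200 kb, all 5 did (100%), against 71.9%. For each Mb of span and flank, the 40 genes held 15.0 regions against 19.3 for all genes. By length class, the densities were 21.7 against 23.9 under 50 kb and 13.2 against 13.9 at 200 kb or more. From 50 to 200 kb the channel genes were higher, at 22.7 against 18.5. Gene-end peaks were less frequent in each length class, at 28.6% against 36.5% under 50 kb, at 20.0% against 43.1% from 50 to 200 kb and at 28.6% against 34.5% above, where the classes hold 21, 5 and 14 channel genes. No test was made over the genes of the list.

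Between the groups, the totals at these genes did not separate. The 40 genes held 28, 48 and 58 peaks in the EB libraries, against 14, 36 and 70 in the vehicle libraries. The vehicle libraries held both the lowest and the highest value, and the groups overlapped. The mean was 44.7 ± 15.3 peaks in EB and 40.0 ± 28.2 in vehicle (SD, n = 3 each), a difference of 4.67. Within replicates 1 and 2 the difference of means was 13, and within replicate 3 it was -12. These peaks were 0.253%, 0.340% and 0.330% of the EB lists, against 0.258%, 0.262% and 0.341% of the vehicle lists, and over the 6 libraries the longer list always held more peaks at these genes.

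Gene-end peaks were found at 4, 2 and 3 of the 40 genes in the EB libraries and at 0, 4 and 8 in the vehicle libraries. Means were 3.00 ± 1.00 in EB and 4.00 ± 4.00 in vehicle (SD, n = 3 each), and the difference changed sign between replicates 1 and 2 (1 gene) and replicate 3 (-5 genes). Distal peaks were found at 13, 22 and 21 genes in EB and at 11, 21 and 24 genes in vehicle, with means of 18.7 ± 4.93 and 18.7 ± 6.81 (SD, n = 3 each). In each of the 6 libraries, the share of these genes with a gene-end peak was below that of all genes (20.8%, 25.5% and 25.2% in EB, 12.1%, 24.1% and 30.6% in vehicle). The share with a distal peak was above that of all genes in each library (16.6%, 19.4% and 25.3% in EB, 8.52%, 20.4% and 29.2% in vehicle).

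Per Mb, distal peaks at these genes numbered 2.23, 4.27 and 5.11 in EB and 1.30, 2.97 and 5.76 in vehicle. Over all genes the same densities were 2.97, 3.86 and 5.45 in EB and 1.26, 3.87 and 6.57 in vehicle. The ratio of channel genes to all genes was 0.751, 1.11 and 0.937 in EB and 1.03, 0.768 and 0.877 in vehicle, on both sides of 1 in each group.

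**Figure D2:**
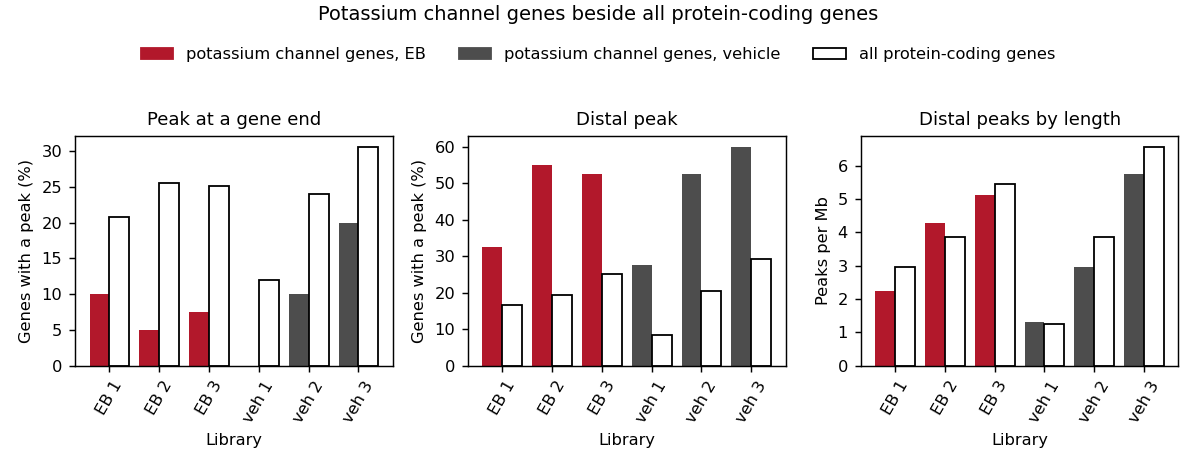
Share of genes with a gene-end peak (percent), share with a distal peak (percent) and distal peaks per Mb, in each library (EB left of vehicle), for the 40 channel genes and for all protein-coding genes. Channel genes lie below all genes for gene-end peaks and above them for distal peaks in each library, while densities per Mb cross.

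No channel gene had a peak in every EB library and in no vehicle library. That count was 0 for gene-end peaks against 0.178% of all genes, 0 for distal peaks against 0.27%, and 0 for any peak against 0.324%. In the other direction the count was 0 for gene-end peaks against 0.0457% of all genes. For distal peaks it was 1 gene (2.5%), Kcnb2, against 0.0959%, and for any peak the same gene, against 0.142%. By the number of peaks, no channel gene had its lowest EB library above its highest vehicle library, against 0.567% of all genes. Kcnb2 alone had its lowest vehicle library above its highest EB library, against 0.192%. Each of these shares of all genes amounts to less than 1 gene in 40.

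Single sites separated in both directions. Of the 161 regions, 3 (1.86%) were EB-only, with a peak in 3 of 3 EB and 0 of 3 vehicle libraries, against 0.737% of all regions. Another 3 (1.86%) were vehicle-only, the reverse, against 0.112%. Only 1 region (0.621%) was present in all 6 libraries, against 7.27%, and 113 (70.2%) were present in 1 library, against 58.9%. Regions found only in EB libraries numbered 65 (40.4% against 33.1% of all regions), and 57 of them were present in 1 library. Those found only in vehicle libraries numbered 61 (37.9% against 32.1%), with 56 present in 1 library. Those found in both groups numbered 35 (21.7% against 34.8%).

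**Figure D3:**
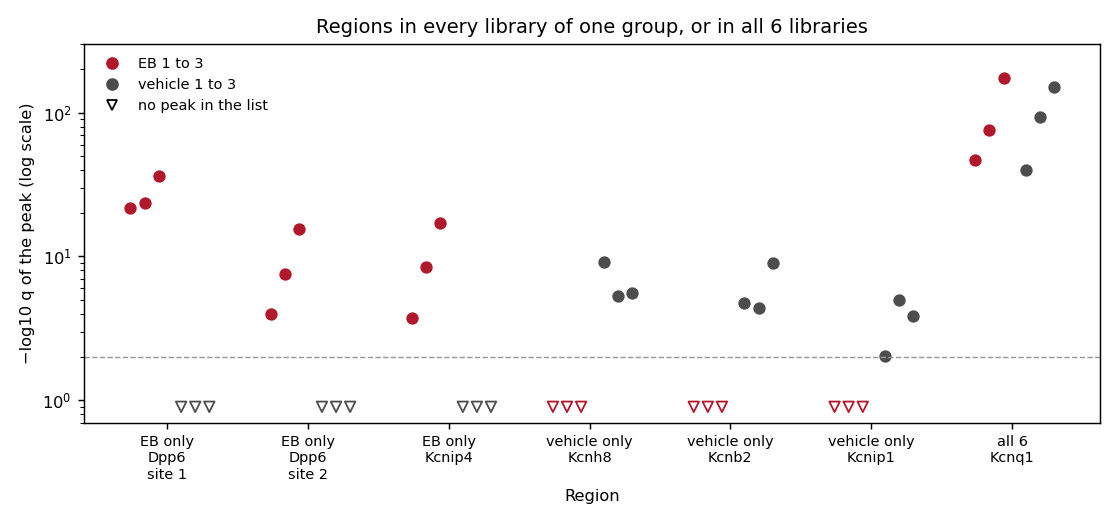
Deposited −log10 q (log axis) of the 7 regions of the 40 genes that were present in every library of 1 group and none of the other, or in all 6 libraries, with a point for each library, EB left of vehicle, triangles where no peak was called and a dashed line at the calling threshold of 2. The Kcnq1 site is above 39 in all libraries, the stronger Dpp6 site lies between 21.6 and 36.4 in EB, and the 3 vehicle-only sites stay below 10.

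The Kv4 channels and their auxiliary proteins, 9 of the 40 genes, held 77 of the 161 regions (47.8%) on 48.0% of the summed span and flank. Their peaks numbered 11, 21 and 30 in the EB libraries and 3, 15 and 31 in the vehicle libraries. Vehicle replicate 1 was low and the groups overlapped. All 3 EB-only regions lay in this set, inside the auxiliary subunit genes Dpp6 and Kcnip4. The pore-forming Kv4 genes held none, on 8.14% of the summed span and flank. With 3 regions, auxiliary and pore-forming genes cannot be compared. Dpp6 and Kcnip4 also held the most regions of the 40 genes, 21 and 22. The set also held the vehicle-only region at Kcnip1, another auxiliary subunit gene.

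Dpp6 encodes a single-pass membrane protein that speeds Kv4 gating and carries channels to the surface. Its span, chr5:26817357-27727500 (mm10), held 20 regions, with 1 more in the flank. It had 2, 8 and 5 peaks in EB libraries and 2, 1 and 9 in vehicle libraries, so by number the groups overlapped. Of its 21 regions 17 were present in 1 library. Both of its EB-only sites lay in the distal part of the span, 11.1 kb apart.

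The stronger site, chr5:27568346-27568587, lay 751 kb from the low-coordinate end of the span and 306 kb from the nearest annotated Dpp6 start. Its summits held an estimated 19, 22 and 31 fragments in EB libraries, at 97.3, 97.2 and 98.1 on the percentile scale of peak strength within each list, and no peak was called in any vehicle library. The second site, chr5:27557127-27557245, had −log10 q values of 3.95, 7.51 and 15.4 and 6, 8 and 15 fragments in EB libraries, and no vehicle peak. It was weak in EB replicate 1, at the 43.0 percentile, and strong in EB replicate 3, at the 92.3 percentile. With the lists cut to the length of the shortest, the stronger site kept its 3 EB libraries and the second site kept 2. Vehicle replicate 3 had a peak at chr5:27262036-27262082, 0.101 kb from an internal Dpp6 start and outside its promoter window. Its −log10 q was 5.57, and no other library shared it.

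Kcnip4 encodes a KChIP protein that binds Kv4 channels and slows their inactivation. It had the most regions of the 40 genes, 22, and 7, 6 and 8 peaks in EB libraries against 0, 5 and 8 in vehicle libraries. Vehicle replicate 1 was at 0 and vehicle replicate 3 equalled the highest EB library. The EB-only site, chr5:48460436-48460584, had −log10 q values of 3.70, 8.43 and 17.0 and 5, 9 and 16 fragments in EB libraries, with no vehicle peak. It lay 139 kb from the nearest annotated Kcnip4 start. Immediately beside it lay a region present in EB replicates 2 and 3 and another present in EB replicate 1, and with peaks merged within 500 bp the 3 regions became 1 of 320 bp, still present in 3 EB and 0 vehicle libraries. With the lists cut to the length of the shortest, the site was held by 2 of the 3 EB libraries and was no longer EB-only by the rule.

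Other Kcnip4 sites did not separate the groups. A region at chr5:49090282-49090379 had −log10 q values of 6.01, 4.22 and 11.9 in EB libraries, and of 4.18 and 10.4 in vehicle replicates 2 and 3, with no peak in vehicle replicate 1. At the high-coordinate end of the gene, a region at chr5:49524875-49524990 had 3.75 and 3.53 in EB replicates 1 and 2, and 4.77 and 5.31 in vehicle replicates 2 and 3. EB replicate 3 had its own peak next to it, at chr5:49525048-49525112, with 7.85. This made Kcnip4 the only one of the 40 genes with a gene-end peak in all 3 EB libraries, and it had 2 vehicle libraries with one.

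**Figure D4:**
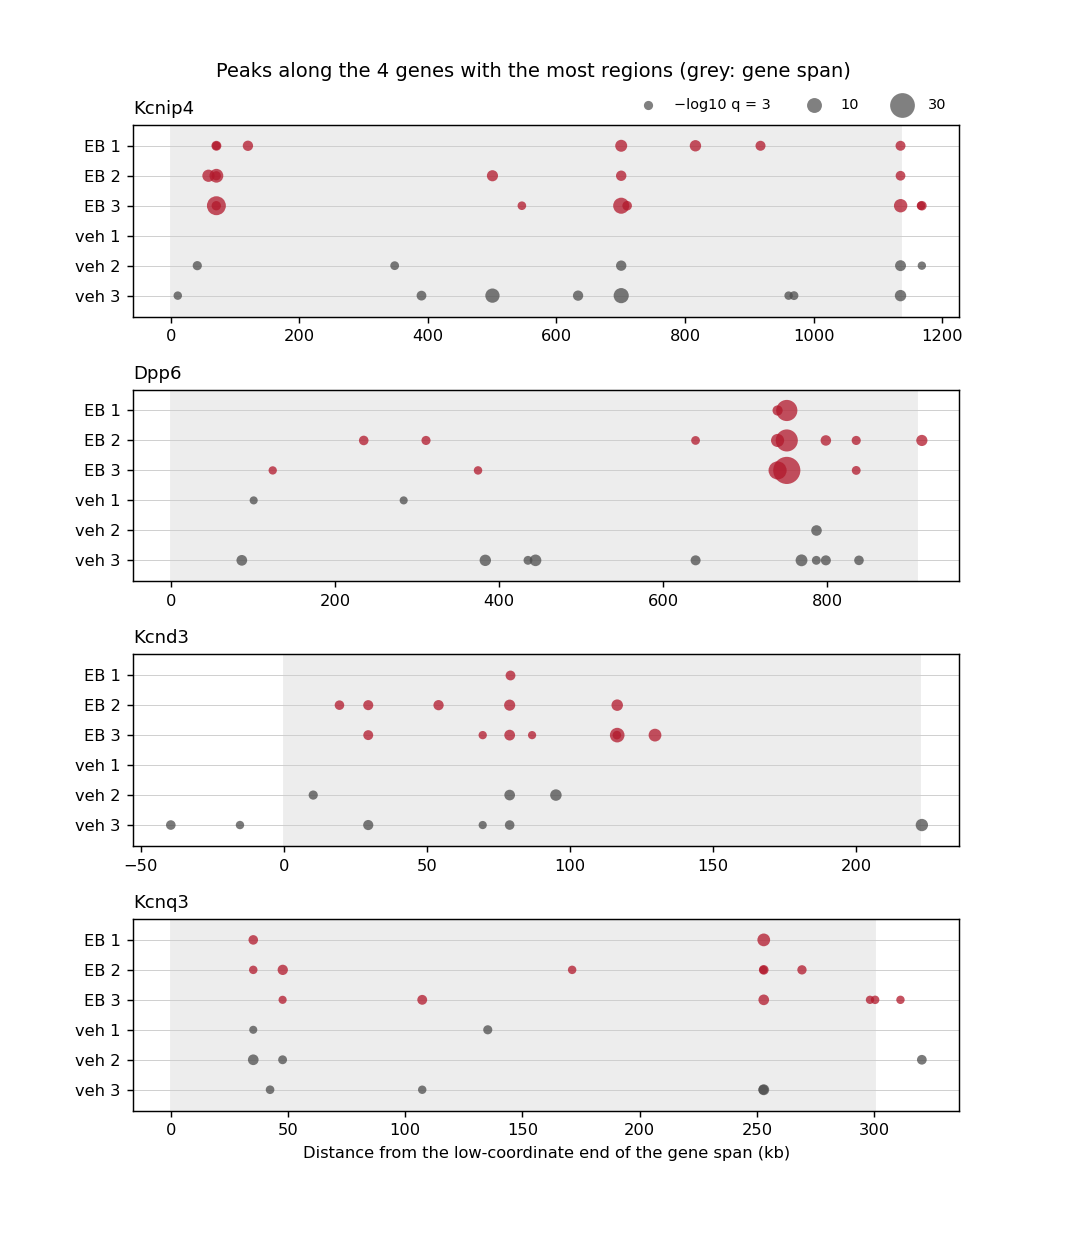
Positions of all peaks at Kcnip4, Dpp6, Kcnd3 and Kcnq3 in kb from the low-coordinate end of each gene, by library (EB above vehicle), with point area growing with −log10 q. Peaks are spread along the spans and mostly present in 1 library, and the largest Dpp6 points are in the EB libraries near 751 kb.

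Among the pore-forming Kv4 genes, Kcnd3 (Kv4.3) held 14 regions and 2, 5 and 7 peaks in EB libraries against 0, 4 and 6 in vehicle libraries. Its most widely shared site, chr3:105530778-105531081, had −log10 q values of 3.61, 5.01 and 4.61 in EB libraries and 4.51 and 3.38 in vehicle replicates 2 and 3. A further site, chr3:105568347-105568514, had 5.42 and 9.62 in EB replicates 2 and 3 and no vehicle peak. Kcnd2 (Kv4.2), the main dendritic Kv4 subunit of many neurons, had 3 peaks in EB replicate 3 and 1 in vehicle replicate 2 and none in the other libraries. Kcnd1 (Kv4.1) had none.

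The other KChIP and DPP genes were sparse. Dpp10, at 1514 kb the longest of the 40 genes, had 0, 0 and 4 peaks in EB libraries against 0, 2 and 2 in vehicle libraries, and all but 1 of its 7 regions were present in 1 library. Kcnip1 had 0, 1 and 1 peaks in EB libraries against 1, 1 and 4 in vehicle libraries. Its vehicle-only site, chr11:33744644-33744726, had −log10 q values of 2.02, 4.98 and 3.83 in the vehicle libraries, close to the threshold in vehicle replicate 1. It was held by 1 vehicle library with the lists cut to the length of the shortest. The Kcnip3 regions whose sequences are printed above had 5.62 with 7 fragments in vehicle replicate 2 and 6.06 with 9 fragments in vehicle replicate 3. Kcnip2 had 1 peak, in EB replicate 3.

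The KCNQ genes held 22 regions, with 4, 8 and 11 peaks in EB libraries against 4, 5 and 8 in vehicle libraries, and the groups overlapped. Kcnq1, best known as the channel of the slow cardiac delayed rectifier, held the strongest site of the list. At chr7:143296543-143296789 the −log10 q was 46.5, 76.3 and 173 in EB libraries, and 39.9, 93.3 and 150 in vehicle libraries. The summits held an estimated 39, 60 and 129 fragments in EB and 34, 72 and 117 in vehicle, at folds over the caller's background of 22.6, 29.8 and 42.3 in EB and 20.9, 32.9 and 37.6 in vehicle. The site stood at percentiles of 99.7 to 99.9 of peak strength within the lists, and the groups overlapped. It lies over the start of Kcnq1ot1, as printed above. In mice Kcnq1ot1 is an imprinted RNA expressed from the paternal chromosome, and its promoter lies in the region that controls imprinting of neighbouring genes. The site is thus inside Kcnq1 by position and at a start of a different transcript.

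Kcnq3, a subunit of the neuronal M-channel, held 14 regions and 2, 6 and 7 peaks in EB libraries against 2, 3 and 4 in vehicle libraries. The EB libraries reached higher numbers, but EB replicate 1 was at or below every vehicle library. Its region at chr15:66239266-66239506 had −log10 q values of 6.98, 3.44 and 4.48 in EB libraries, and 4.75 in vehicle replicate 3 only. The region at chr15:66021540-66021645 had 3.34 and 2.34 in EB replicates 1 and 2, and 2.02 and 4.51 in vehicle replicates 1 and 2. Kcnq5, another M-channel subunit, had 0, 0 and 2 peaks in EB libraries against 1, 1 and 2 in vehicle libraries, at 5 regions with none above 3.81.

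Kcnb2 (Kv2.2), which forms delayed rectifier channels, had 0, 0 and 0 peaks in EB libraries against 1, 2 and 1 in vehicle libraries. Its vehicle-only site, chr1:15683745-15683828, held an estimated 6, 6 and 9 fragments in the vehicle libraries. The remaining Kcnb2 peak, in vehicle replicate 2, held 4 fragments. With the lists cut to the length of the shortest, the vehicle-only site was held by 2 of the 3 vehicle libraries, and Kcnb2 no longer met the rule.

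The silent subunits, which do not form channels alone but change Kv2 channels, were 10 genes with 18 regions. Kcnf1 (Kv5.1), which spans 4.79 kb, had 2, 2 and 3 peaks in EB libraries and 1, 1 and 4 in vehicle libraries, nearly all in its flanks. A region 22.7 kb outside it, chr12:17149078-17149355, had −log10 q values of 5.34, 8.01 and 12.9 in EB libraries and 3.10 in vehicle replicate 3, with no peak in vehicle replicates 1 and 2. It was higher in each EB library than in the vehicle library that held it, but −log10 q depends on depth and is not compared between lists. Another flank region, chr12:17155979-17156049, had 3.07 and 4.64 in EB replicates 1 and 2, and 2.32 and 8.37 in vehicle replicates 1 and 3.

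Kcng3 (Kv6.3) had 1, 1 and 1 peaks in EB libraries and 1, 1 and 2 in vehicle libraries, all within a stretch of 396 bp, chr17:83587902-83588297. With peaks merged within 500 bp, this stretch became a second region present in all 6 libraries. Its highest value was 5.59, in EB replicate 2. Kcng2 had 2, 1 and 2 peaks in EB libraries and 0, 0 and 3 in vehicle libraries, and the group values overlapped through vehicle replicate 3. Kcns3 had a flank region at 27.7 kb with 5.24 and 8.40 in EB replicates 1 and 2, and 9.40 and 8.33 in vehicle replicates 2 and 3. Kcng1 and Kcnv1 had at most 1 peak in a library.

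The ether-à-go-go genes (Kcnh1 to Kcnh8), which include the Erg channels that repolarize heart and neurons, held 22 regions over 8 genes. Their peaks numbered 3, 6 and 4 in EB libraries against 3, 3 and 10 in vehicle libraries. Kcnh8 had 0, 0 and 1 peaks in EB libraries against 1, 1 and 1 in vehicle libraries. Its vehicle-only site, chr17:52560066-52560174, lay 42.5 kb outside the gene, and held an estimated 9, 6 and 6 fragments in the vehicle libraries. It too was held by 1 vehicle library with the lists cut to equal length. Kcnh2 (Erg1) had a gene-end region, chr5:24351697-24351803, with −log10 q values of 4.98 and 5.00 in vehicle replicates 2 and 3 and no peak in any EB library. It was the only peak at Kcnh2. Kcnh1 and Kcnh3 had 1 gene-end peak each, Kcnh1 in EB replicate 1 (2.65) and Kcnh3 in vehicle replicate 3 (3.74). Kcnh4 and Kcnh6 had 1 distal peak each, in EB replicate 2 and EB replicate 3. Kcnh7 (Erg3) had 0, 2 and 1 peaks in EB libraries against 2, 0 and 3 in vehicle libraries, and Kcnh5 had 1, 1 and 0 against 0, 0 and 2.

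The Kv1 genes, whose channels sit along axons and at nerve terminals, held 14 regions over 6 genes, and 3 of the 6 had a gene-end peak. Kcna6 (Kv1.6) had the strongest of them, inside its span at chr6:126712692-126712790, with −log10 q values of 5.72 and 22.7 in EB replicates 2 and 3, and 5.81 and 27.9 in vehicle replicates 2 and 3. Replicate 1 of both groups had no peak there, and the values ran alongside each other by replicate number. Kcna2 had a gene-end region, chr3:107114513-107114609, with 2.05 and 2.27 in EB replicates 1 and 2 and no vehicle peak, at 4 fragments each. Kcna3 had a gene-end region, chr3:107038833-107038887, with 2.81 in EB replicate 1, and 3.51 and 5.10 in vehicle replicates 2 and 3. Kcna1 had a peak in EB replicate 3 (6.02) and a neighbouring peak in vehicle replicate 3 (3.71). Kcna5 had 0, 0 and 2 peaks in EB libraries against 0, 1 and 2 in vehicle libraries, all in its flank, and Kcna4 had 1 flank peak, in EB replicate 2.

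The Kv3 genes, which allow rapid firing, held 6 regions over 3 genes and no gene-end peak. Kcnc4 had a region 2.02 kb outside its span with 4.75 and 3.90 in EB replicates 1 and 2, and 3.20 and 5.14 in vehicle replicates 2 and 3. Kcnc1 had a region at chr7:46422507-46422607 with 6.73 in EB replicate 2, and 4.43 and 4.15 in vehicle replicates 2 and 3. Kcnc2 had 1, 1 and 1 peaks in EB libraries against 0, 1 and 1 in vehicle libraries.

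By library count, gene-end peaks lay on both sides. There were 4 genes with more EB than vehicle libraries (Kcnh1, Kcnq3, Kcna2 and Kcnip4), 6 with more vehicle libraries (Kcnd3, Kcnf1, Kcnh3, Kcnh2, Kcnip3 and Kcna3) and 1 with as many of each (Kcna1). Of the 14 gene-end regions, 10 were present in 1 library. Distal peaks were present in more EB libraries at 12 genes, in more vehicle libraries at 9 and in as many of each at 11. Over all genes, the shares with more EB and with more vehicle libraries were 12.6% and 8.71% for gene-end peaks, and 14.8% and 12.7% for distal peaks.

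Peaks at the channel genes were weak by the standard of their lists. Their median summit held 5, 5 and 5 fragments in EB libraries and 4.5, 5 and 5 in vehicle libraries, against 6 over each list. Of the 28, 48 and 58 peaks at these genes in EB libraries, 2, 2 and 7 had a −log10 q of at least 10. Of the 14, 36 and 70 in vehicle libraries, 1, 1 and 3 did. Over the whole lists, the shares were 14.1%, 17.1% and 16.1% in EB and 10.8%, 16.1% and 19.1% in vehicle. Over regions, 7 of 161 (4.35%) reached 10 in some library, against 13.5% of all regions, and 12 (7.45%) were present in 4 or more libraries, against 19.1%. The 4 genes with the most regions (Kcnip4, Dpp6, Kcnd3 and Kcnq3) held 71 of the 161 regions (44.1%) on 25.8% of the summed span and flank.

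Other potassium channel families are given for comparison by counts. A gene-end peak in at least 1 library was found at 5 of 14 inward rectifier genes, 4 of 14 two-pore genes, 4 of 10 calcium- and sodium-activated genes and 0 of 7 genes of Kv1 and minK-type auxiliary subunits. A distal peak was found at 8, 9, 7 and 5 genes of these lists in the same order. No gene of the 4 lists had a peak in every library of 1 group and none of the other. Regions per Mb were 21.5, 18.1, 13.2 and 22.1 in the same order, against 15.0 at the 40 voltage-gated and auxiliary genes.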

How the data were processed

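Each library has 1 peak list. The build mm10 and the tools MACS2, Bowtie2, SAMtools, Picard, cutadapt and deepTools appear in the submitters' processing notes, with no version or role. Each peak of the deposited lists has an integer score, a fold at the summit (a ratio to the caller's background), −log10 p-values and −log10 q-values and a summit offset, and these are the authors' own values, used to describe and rank peaks within a list. Per the names inside the deposited lists, peaks were called in each library at a q of 0.01. The meaning of a further number in those names, 25, and any use of a control library are not given in the sources used here.

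Peaks of the 6 lists were merged where they overlapped or touched by 1 bp and assigned to RefSeq gene spans of GRCm38.p6. That table has no strand, so gene-end peaks lie within 1 kb of either end. Fragments at a summit were solved from fold and p-value, assuming a pseudocount of 1 and a Poisson tail, and a whole number matched within 0.0002 on the −log10 p scale for 100% of peaks. A genome was not used here, so sequence is limited to RefSeq promoter windows. Python 3.11.15, numpy 2.4.6, pandas 2.3.3, scipy 1.17.1 and matplotlib 3.10.9 were used, and the assignment, merging and counting steps were tested on simulated data.

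Values in every library were given for genes with groups that do not overlap, the top 5 regions of each kind (EB-only, vehicle-only, in all 6) and the 5 genes with the most regions. Other genes and regions were named after their values were seen. The genes, lists, tests and alternatives were chosen with earlier results of these data known. Alternatives were a 10 kb flank, a gene end of 2 kb, −log10 q of at least 3, lists cut to equal length, summits in place of peaks, 2 of 3 libraries, 50% cover of a region, a replicate block, values within replicate sets, each library left out and, added after seeing the data, merging within 500 bp.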

Additional observations from a re-analysis of the deposited data

How the results depend on the processing

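A 10 kb flank and −log10 q of at least 3 kept the counts of EB-only and vehicle-only genes and of genes with higher numbers in either group. Both gave 3 EB-only and 2 vehicle-only regions. Summits in place of peaks kept the counts of genes, and were not run for regions. A gene end of 2 kb gave a difference of -1.33 genes with a gene-end peak. Merging within 500 bp gave 147 regions, with 3 EB-only, 3 vehicle-only and 2 in all 6 libraries in place of 1. Over all 34978 merged regions, these numbered 331, 44 and 2885. With lists cut to 5421 peaks there were 0 vehicle-only genes, 0 genes with higher vehicle numbers, 0 vehicle-only regions and 2 EB-only regions. Of the named EB-only sites, the stronger Dpp6 site kept 3 EB libraries, while the second Dpp6 site and the Kcnip4 site each kept 2 and were no longer called. Of the named vehicle-only sites, Kcnb2 kept 2 vehicle libraries, and Kcnh8 and Kcnip1 kept 1 each. The stronger Dpp6 site also stayed EB-only with 50% cover of a region and merging within 500 bp. Leaving out libraries, asking for 2 of 3 and the replicate block could not have undone its call. The looser rule of 2 of 3 libraries gave 2 vehicle-only genes (Kcnb2 and Kcnh2), 8 EB-only and 5 vehicle-only regions. A 50% cover of a region gave 1 EB-only region. With −log10 q of at least 3, the Kcnip1 site kept 2 of its 3 vehicle libraries. The cause was not tested.

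Leaving out 1 library at a time gave 0 to 1 EB-only genes (1 without vehicle replicate 3) and 1 to 3 vehicle-only genes (3 without EB replicate 3, 2 without vehicle replicate 1). It gave 0 to 4 genes with higher EB numbers (4 without vehicle replicate 3, 1 without EB replicate 1) and 1 to 3 with higher vehicle numbers (3 without EB replicate 3, 2 without vehicle replicate 1). It gave 3 to 7 EB-only regions (7 without EB replicate 1 and 5 without vehicle replicate 3) and 3 to 4 vehicle-only regions. The difference in genes with a gene-end peak ran from -3 to 1, and that in peaks at these genes from -8.33 to 19.7, in both cases without vehicle replicate 1 and without vehicle replicate 3. Within replicates 1 and 2 there were 3 EB-only and 3 vehicle-only genes, 6 and 3 with higher EB and vehicle numbers, and 8 EB-only regions. In replicate 3 the vehicle list is longer. Within replicate 3, where there is 1 library of each group, there were 3 EB-only and 9 vehicle-only genes, 7 and 17 genes with higher EB and higher vehicle numbers, 44 EB-only and 56 vehicle-only regions, and a gene-end difference of -5.

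A replicate block asks that at least 2 of the 3 same-numbered pairs differ 1 way and none the other. Counted at the 40 genes only, it gave 1 EB-only gene (Kcng2) and 4 vehicle-only genes (Kcnb2, Kcnh2, Kcnh8 and Kcnq5). It gave 4 genes with higher EB numbers (Kcnd3, Kcnip4, Kcnq1 and Kcnq3), 5 with higher vehicle numbers, and 10 EB-only and 5 vehicle-only regions. Deviations from group means over all genes correlated at 0.327, 0.0352 and 0.286 between libraries numbered 1, 2 and 3. Over all genes each EB library correlated best with the vehicle library of its own number. Peak numbers were not scaled for list length, which rose with replicate number in both groups. The main counts used no pairs, and these correlations can neither settle that choice nor tell pairing from list length. Over the 40 genes the best match was not always the same number. EB replicate 2 correlated at -0.557 with vehicle replicate 2 and 0.334 with vehicle replicate 3, and EB replicate 3 at 0.219 and 0.185. Low estimated depth limits what a missing peak can show.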
